A study of Mus musculus with 7 samples.

Results

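The cytosolic ribosomal protein genes described here are the entries whose symbol begins with Rpl, Rps or Rplp followed by a digit, together with Rpsa. The Rps6k kinases and symbols marked as pseudogenes were left out, and no measured level entered the choice. The rule found 79 genes among the 12092 symbols of the table, 42 of the large subunit and 37 of the small subunit. Of these, 70 were counted as core genes and 9 as paralogs or associated genes. RefSeq lists 4 of the 79, Rps3a2, Rps3a3, Rps12l1 and Rps4l, as pseudogenes although their symbols do not mark them so. Several core genes, among them Rpl3 and Rpl7a, were not analysed here.

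The cells were thymocytes at the double-positive (DP) stage, which follows signaling by the pre-TCR. They were sorted from mice of 4 to 5 weeks as CD4+ CD8+ cells without TCRγδ, and their poly(A) RNA was sequenced. The 4 genotypes were WT (1 library), pTαKO, which lacks the pre-TCR chain pTα through the germline (1 library, replicate 2), L-DKO (Id2 f/f Id3 f/f LckCre+, 2 libraries) and LP, which is L-DKO on the pTαKO background (2 libraries). Id2 and Id3 are inhibitors of E proteins, and in L-DKO and LP mice they are deleted by a Cre recombinase expressed from the T lineage promoter of Lck. The design asks how loss of the Id proteins, loss of the pre-TCR, and loss of both alter the transcripts of DP cells.

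Expression was given as log2(FPKM + 1), where FPKM is fragments per kilobase of exon model scaled to the number of mapped reads, and every difference below is on that scale, which understates changes of low genes. Sequencing depth was not stated. The median log2 level of all genes lay between 3.95 and 4.02 in the 6 libraries, while the 20 most abundant entries held from 30.1% of all FPKM in WT to 72.7% in LP replicate 2. Id3 stood at 6.22 in WT and 5.25 in pTαKO, and between 1.91 and 3.32 in the 4 Id-deleted libraries. Id2 did not separate the groups: its level was 3.56 in WT and 1.87 in pTαKO, 1.00 and 0.24 in the L-DKO pair, and 1.92 and 0.99 in the LP pair, so that LP replicate 1 was above the Id-intact pTαKO library. Ptcra, which encodes pTα, did not separate the genotypes: it stood at 5.06 in WT and 5.75 in pTαKO, at 6.35 and 6.62 in the L-DKO pair, and at 5.35 and 5.87 in the LP pair. The value covers the whole gene, and which exons the allele lacks is not given in the sources used here, so it does not check the pTα labels. The words pTαKO, LP and pTα-deficient below therefore mean libraries labelled so. The Y-linked gene Ddx3y stood at 0.67 in pTαKO and 0.63 in LP replicate 2, and between 4.21 and 5.14 in the other libraries. The other Y-linked genes measured, Eif2s3y, Kdm5d and Uty, were lowest in the same pair of libraries.

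Ribosomal proteins assemble with ribosomal RNA in the nucleolus into the large and small subunits of the cytosolic ribosome. Most of their mRNAs start with a C followed by a run of pyrimidines, the terminal oligopyrimidine (TOP) tract, through which the mTOR kinase adjusts their translation as a group. Ribosomal proteins also act in T cell development: in mice, loss of Rpl22 blocks thymocytes at the step controlled by the pre-TCR, and unassembled Rpl5 and Rpl11 bind Mdm2, the inhibitor of p53.

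RefSeq promoter windows on GRCm38.p6 (250 bases before and 50 bases after an annotated start) were found for 60 of the 79 genes. A C at the annotated start with at least 4 pyrimidines after it, read on the gene's strand, was present in 13 of 52 core genes, or 25%, and began within 5 bases of the start in 46.2%. The shares over all 27025 genes with a window were 3.01% and 21.2%, and a tract at the start itself was found in 0 of 64 mitochondrial ribosomal protein genes. For the 12 genes with a window on a list of elongation factors and other TOP mRNAs, the shares were 8.33% and 41.7%. The letters CCGGAAG, the core recognised by ETS family factors, occurred on either strand in 23 of 52 core genes (44.2%), against 9.93% of all genes and 32.8% of mitochondrial ribosomal protein genes. TATAAA was found in 11.5% of core genes and 15.7% of all genes, on either strand. A gene counted if any of its annotated starts carried the letters, and a match is a description and not a tested site. The windows of 5 genes are shown to make the tract visible, from 10 bases before the start to 15 bases from it on, 5′ to 3′ on the gene's strand, with the pyrimidine run from its C at or after the start in capitals. Rpl35a has other annotated starts, which are not shown.
Rplp2 (chr7:141447641-141447665, + strand): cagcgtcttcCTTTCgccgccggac
Rpl35a (chr16:33056472-33056496, + strand): gcttgccttcCTCTTTCCgccatct
Rps27 (chr3:90213634-90213658, - strand): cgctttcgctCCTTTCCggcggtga
Rps15a (chr7:118116133-118116157, - strand): tttctgccatCTTCCCTCgccggtg
Rpl22l1 (chr3:28805498-28805522, + strand): gcgcaagcccgttCTCTTCCCacgg
In Rpl22l1, which encodes the paralog of Rpl22, the capitals begin 3 bases after the annotated start, and in the other 4 at the start itself. In those 4 genes pyrimidines also precede the start without a break, in Rps15a only a T.

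Ribosomal protein genes were among the most abundant transcripts of DP cells. Of the 79 members, 61 had a mean level above 8 on the log2 scale, a level reached by 2.53% of the 12063 genes tested, and 22 had a mean above 10. Among the highest means were those of Rps27 (11.13), Rps15 (11.12), Rplp1 (11.09) and Rps9 (11.003). The lowest were those of Rps12l2 (0.84), Rpl3l (0.84), Rpl39l (1.49), Rps4l (2.18) and Rps19bp1 (4.71), so paralogs, associated genes and copies filled the low end. FPKM values are per length of the exon model, but reads can be divided among near-identical entries, described below, so the order of levels is uncertain. In WT, Rps23 stood at 5.98 alone and at 8.33 with such entries summed, and Rpl5 at 7.20 and 8.40.

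Levels varied little between libraries. The SD over the 6 libraries had a median of 0.15 over the members and of 0.32 over all genes tested, and it was under 0.2 for 65 members (82.3%) against 23.0% of all genes. Low SD was not particular to the family. Its median was 0.11 for 11 DP thymocyte markers (90.9% under 0.2) and 0.12 for 18 elongation factors and TOP mRNAs (83.3%). For mitochondrial ribosomal proteins and the respiratory chain the median was higher, at 0.27 and 0.20. Among the steadiest members were Rpl36al (SD 0.08), Rpl35a (0.09), Rpl8 (0.09) and Rpl14 (0.10). The SD exceeded 0.5 in 8 members, Rps3a3 (1.31), Rpl3l (0.97), Rps3a1 (0.97), Rps3a2 (0.90), Rpl39l (0.85), Rps12l2 (0.62), Rplp0 (0.53) and Rps4l (0.51). Rplp0 and Rps3a1 were the only 2 among them that are core genes and not copies.

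Most members had slightly higher levels in the LP than in the L-DKO libraries, and none passed the test. The median difference over the 79 members was 0.21 (1.16-fold), with 72 members above 0, against 0.001 over all genes tested. It was 0.19 for the large subunit and 0.24 for the small subunit. The LP pair lay above the L-DKO pair without overlap in 53 of 79 members (67.1%), against 22.3% of all genes, and both lay below in 2 members (2.53%), against 22.2%. No member passed limma's test (adjusted p over all 12063 genes, threshold 0.05), which called 2 genes in all, 0.0166% of those tested. At an unadjusted p under 0.05 there were 3 members (3.8%), Rps19 and Rps12l1 upward and Rpl3l downward, a smaller share than the 11.1% of all genes. Nothing in the labels says that libraries of a genotype came from separate mice. The LP libraries differ in their Y-linked genes and so were not repeats of 1 sample, while the spread between the L-DKO libraries may be technical, and p-values measure only the spread between these libraries.

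**Figure D1:**
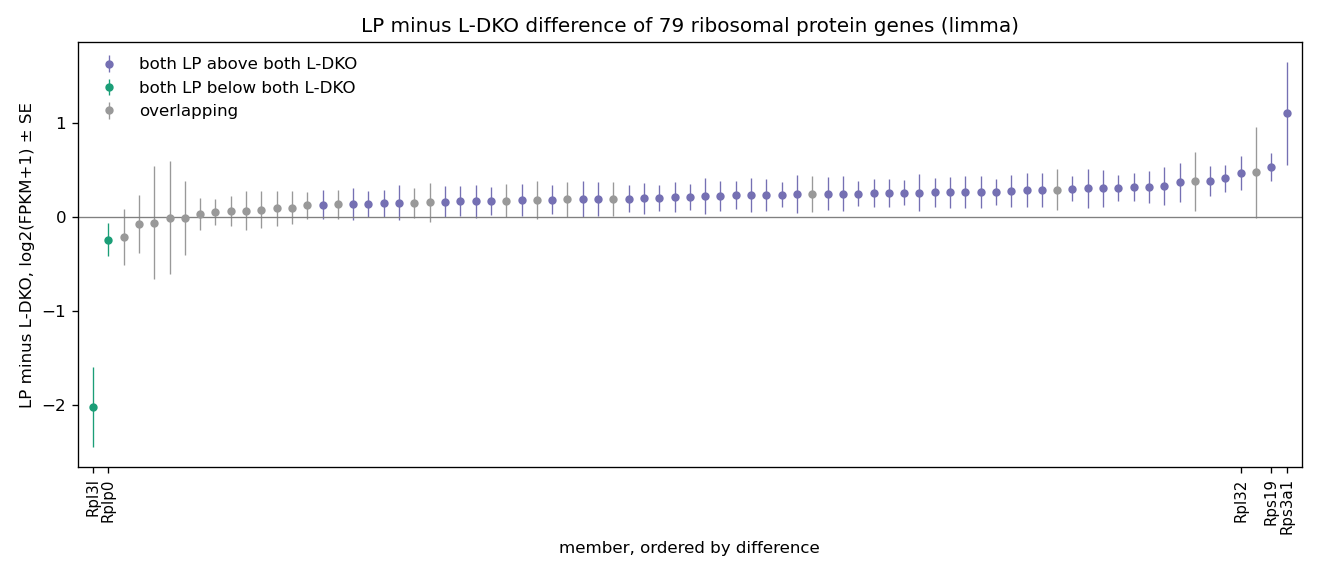
LP minus L-DKO difference in log2(FPKM + 1) of each of the 79 members (y axis), ordered by size along the x axis with 5 genes named, with bars of 1 standard error from limma and colors for whether the libraries of the groups overlap. Most members sit a little above 0, between Rpl3l at -2.02 and Rps3a1 at 1.11, and in 53 the LP pair lies above the L-DKO pair without overlap.

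The shift was about as large as the gap between the L-DKO libraries themselves. L-DKO replicate 2 exceeded L-DKO replicate 1 in 70 of 79 members, by a median of 0.19, while LP replicate 2 minus LP replicate 1 had a median of -0.04. LP replicate 1 exceeded L-DKO replicate 1 by a median of 0.32 and L-DKO replicate 2 by 0.15. LP replicate 2 exceeded them by 0.29 and 0.13. Without LP replicate 2, the LP library with low Ddx3y, the median LP minus L-DKO difference was 0.22, and without L-DKO replicate 1 it was 0.15. Members shifted together within a genotype as well, so the counts above are not counts of independent genes.

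**Figure D2:**
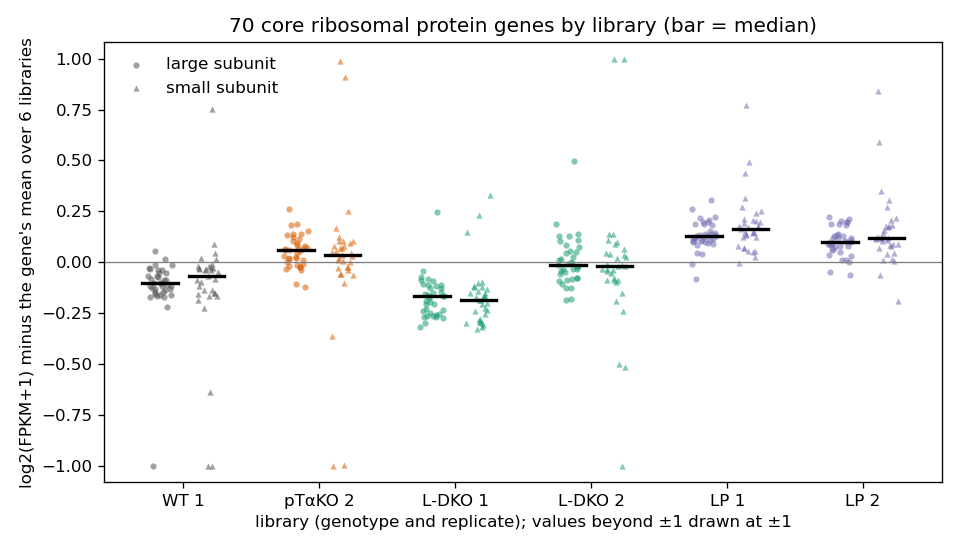
Deviation of each of the 70 core genes from its own mean over the 6 libraries, in log2(FPKM + 1), by library, with circles for the large subunit, triangles for the small subunit and a black bar at each median. The LP libraries sit above 0, L-DKO replicate 1 and WT below it, and L-DKO replicate 2 close to 0, and values beyond 1 in either direction are drawn at the edge.

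The 2 highest differences between LP and L-DKO among core genes with a protein product belonged to Rps3a1, described with its copies below, and Rps19, a small subunit protein mutated in Diamond-Blackfan anemia in humans. Rps19 stood at 8.996 in WT and 9.47 in pTαKO, at 8.91 and 8.98 in the L-DKO pair, and at 9.39 and 9.57 in the LP pair. All 3 pTα-deficient libraries were above all 3 pTα-sufficient ones. The difference between LP and L-DKO was 0.53 ± 0.15 (SE, limma, n = 2 and 2, adjusted p = 0.365), or 1.45-fold. It was followed by Rpl32, a large subunit protein, at 10.59 in WT and 10.84 in pTαKO, at 10.52 and 10.57 in the L-DKO pair, and at 11.07 and 10.96 in the LP pair. Rpl32 differed by 0.47 ± 0.18 (SE, limma, adjusted p = 0.455) and its LP libraries were the highest of the 6. Rps27, of the small subunit, differed by 0.37. Rps12l1, listed as a pseudogene, differed by 0.41 and Rps12l2 by 0.48, the latter at a level between 0.20 and 1.82.

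Pooling both Id backgrounds, most members had higher levels in the pTα-deficient libraries, again with none past the test. The mean of LP and pTαKO exceeded the mean of L-DKO and WT in 77 of 79 members, by a median of 0.17 (1.13-fold), against 0.01 over all genes tested. The exceptions were Rpl3l and Rps3a3. The 3 pTα-deficient libraries lay above all 3 pTα-sufficient libraries in 34 members (43%), against 9.94% of all genes, and below them in 1 member (1.27%), Rpl3l, against 8.8%. No member was called by limma, whose calls came to 14 genes, 0.116% of those tested, and the lowest adjusted p was 0.317, that of Rps19. Without adjustment, Rps19 and Rplp0 upward and Rpl3l downward had p under 0.05, or 3.8% of members against 10.7% of all genes. The summed level of all members was 55779 FPKM in WT and 61333 in pTαKO, at 52868 and 59035 in the L-DKO pair, and at 66450 and 64085 in the LP pair. Without L-DKO replicate 2 the count of 34 became 55 (69.6%), against 14.9% of all genes with that library left out. As a share of all FPKM in the library, the members made up 7.41% in WT and 4.68% in pTαKO, 3.79% and 3.51% in the L-DKO pair, and 5.74% and 3.10% in the LP pair, an order that differs from that of the sums. Those shares stand beside the unequal share of the 20 most abundant entries given above. The libraries with low Y-linked genes, pTαKO and LP replicate 2, were both pTα-deficient. All 4 Y-linked genes measured were lower in the pTα-deficient than in the pTα-sufficient libraries without overlap. The part of that difference in the ribosomal protein levels was not tested.

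Between L-DKO and WT the family showed no common direction. The median of L-DKO minus WT was -0.003, with 39 of 79 members above 0 and 40 below. LP exceeded WT in 73 members by a median of 0.22, and LP exceeded the pTαKO library in 56 members by a median of 0.07. The pTαKO library exceeded the WT library in 66 members by a median of 0.12, a comparison of 1 library with 1 that carries no test. The Id-deficient groups exceeded the Id-intact ones in 51 members by a median of 0.05. These comparisons share libraries, so their medians are not independent of each other. limma called 0 members in any of them, where the genes called made up 0.0414% of all tested for L-DKO and WT, 0.058% for LP and WT, 0.0995% for LP and pTαKO, and 0.0829% for the Id comparison. At an unadjusted p under 0.05 there were 3, 4, 2 and 4 members, respectively, all among Rplp0, Rps19, Rps3a1, Rps3a2 and Rps3a3. The shares of members were 3.8%, 5.06%, 2.53% and 5.06%, each below the share of all genes, 4.34%, 6.08%, 6.19% and 6.49%.

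Whether the pTα difference depended on the Id genes was tested by the interaction term, in which the L-DKO minus WT difference is taken from the LP minus pTαKO difference. Its median was 0.08 over the members, 0.05 for the large and 0.11 for the small subunit, and -0.03 over all genes. No member was called, among calls of 0.0497% of all genes, and 1 member (1.27%), Rplp0, had an unadjusted p under 0.05, against 4.46% of all genes. Without L-DKO replicate 1 the median became -0.02, so its sign rested on that library.

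The stalk of the large subunit, which recruits elongation factors, is built from Rplp0, Rplp1 and Rplp2. Rplp1 stood at 10.95 in WT and 11.28 in pTαKO, at 10.83 and 11.01 in the L-DKO pair, and at 11.32 and 11.18 in the LP pair. Rplp2 stood at 9.40 in WT and 9.68 in pTαKO, at 9.24 and 9.24 in the L-DKO pair, and at 9.52 and 9.42 in the LP pair. In both genes the 3 pTα-deficient libraries were above the 3 pTα-sufficient ones, by 0.33 ± 0.18 for Rplp1 and 0.25 ± 0.13 for Rplp2 (SE, limma, adjusted p = 0.587 and 0.563). Rplp0, which anchors the other two, behaved differently, at 8.86 in WT and 9.93 in pTαKO, at 10.14 and 10.39 in the L-DKO pair, and at 10.02 and 10.03 in the LP pair. It was lowest in WT and highest in L-DKO, and LP differed from L-DKO by -0.24 ± 0.17 (SE, limma, adjusted p = 0.645).

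The values of Rplp0 have to be read with those of 2 near-identical entries, Gm8730 (98.7% identical over the coding sequence) and Gm9625 (97.5%), which RefSeq lists as pseudogenes on chromosomes 8 and 13, while Rplp0 is on chromosome 5. Gm8730 stood at 8.55 in WT and 7.89 in pTαKO, at 3.90 and 4.00 in the L-DKO pair, and at 8.10 and 7.98 in the LP pair. Gm9625 stood at 6.19 in WT and 5.41 in pTαKO, at 3.11 and 2.95 in the L-DKO pair, and at 5.65 and 5.56 in the LP pair. Both copies were low in the L-DKO libraries alone, where Rplp0 was highest. Gm8730, named here after its values were seen, was 1 of the 2 genes that limma called between LP and L-DKO, with a difference of 4.09 ± 0.13 (SE, adjusted p = 0.00577), and it was also called by the interaction test (adjusted p = 0.016). The summed level of the 3 entries was 9.83 in WT and 10.29 in pTαKO, at 10.17 and 10.42 in the L-DKO pair, and at 10.41 and 10.39 in the LP pair. On the sum, LP exceeded L-DKO by 0.11 in place of -0.24. Reads from entries this alike can be assigned to any of them, so the level of each is uncertain, and the cause of the shift between entries was not tested.

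The same held for Rps3a1, a small subunit protein, and its copies Rps3a2 (99.5% identical), Rps3a3 (98.9%) and Gm13408 (98.2%). Rps3a1 stood at 9.15 in WT and 9.31 in pTαKO, at 8.26 and 6.61 in the L-DKO pair, and at 8.45 and 8.62 in the LP pair. Rps3a2 stood at 5.76 in WT and 5.96 in pTαKO, at 7.11 and 7.98 in the L-DKO pair, and at 7.40 and 7.55 in the LP pair. In all 4 Id-deficient libraries Rps3a1 was lower, and Rps3a2 higher, than in WT and pTαKO. Rps3a3 followed Rps3a2, at 5.28 in WT and 5.24 in pTαKO, at 7.11 and 8.27 in the L-DKO pair, and at 7.65 and 7.72 in the LP pair, and had the lowest adjusted p of any member in the Id comparison (2.43 ± 0.34, SE, limma, adjusted p = 0.256). The summed level of the 4 entries stayed between 9.26 and 9.70 in all 6 libraries. The LP minus L-DKO difference of Rps3a1, 1.11 ± 0.55 (SE, limma, adjusted p = 0.541), was 0.27 on the sum.

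**Figure D3:**
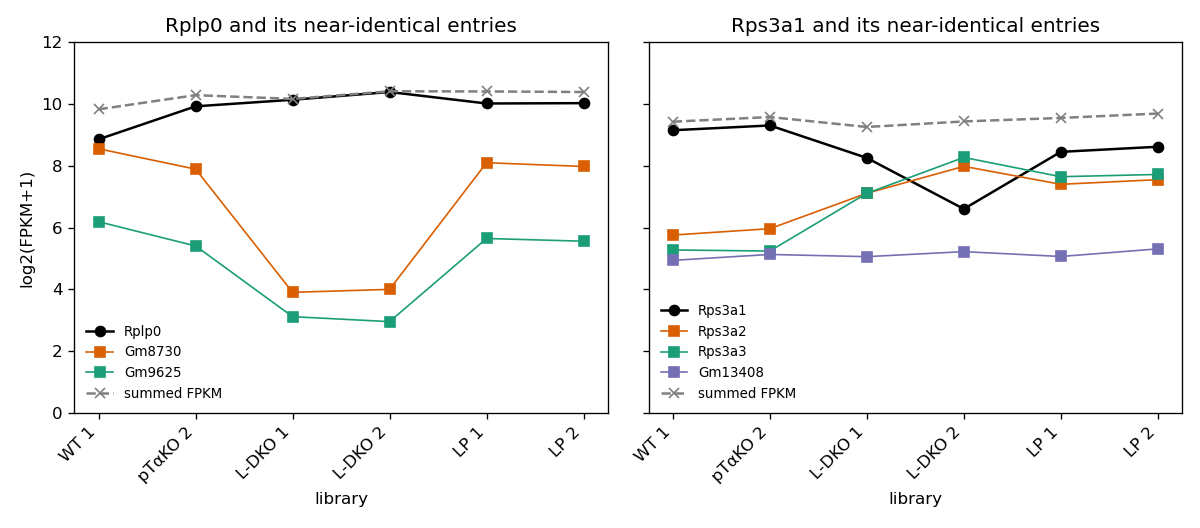
Level in log2(FPKM + 1) (y axis) in each of the 6 libraries (x axis) of Rplp0 and Rps3a1 (black circles), of their near-identical entries (colored squares) and of the summed FPKM (grey dashes). In L-DKO, Gm8730 is near 4 while Rplp0 is highest, and Rps3a1 reaches its lowest value, 6.61, in L-DKO replicate 2, whereas the summed lines stay between 9.26 and 10.42.

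Copies were common across the family. Of the 77 members with a coding sequence in the annotation used, 58 had at least 1 other entry of the table with at least 95% identity over at least 50% of it, 158 entries in all. With the copies added to each member, a choice made after the data were seen, the median LP minus L-DKO difference was 0.23. Members that are copies of each other, such as Rps3a1, Rps3a2 and Rps3a3, then carry the same sum and enter that median more than once. Rps15a, a small subunit protein whose level was uneven between the L-DKO libraries, stood at 9.88 in WT and 9.54 in pTαKO, at 10.24 and 9.39 in the L-DKO pair, and at 10.18 and 10.21 in the LP pair, and its only copy in the table, Rps15a-ps7, stood between 2.83 and 3.44. In Rps29, of the small subunit, the gene itself lay between 10.44 and 10.78, whereas its identical copy Gm14303 stood at 10.73 in WT and 10.62 in pTαKO, at 10.47 and 10.71 in the L-DKO pair, and at 10.21 and 8.71 in the LP pair. The lowest value of Gm14303 was that of LP replicate 2, where the summed level was 11.08 against 11.46 to 11.74 in the other libraries. The 92 entries named as ribosomal protein pseudogenes had a median LP minus L-DKO difference of 0.18.

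Rpl22 and its paralog Rpl22l1 were both expressed. Rpl22 stood at 9.37 in WT and 9.48 in pTαKO, at 9.35 and 9.35 in the L-DKO pair, and at 9.56 and 9.64 in the LP pair. Its LP libraries were the highest of the 6, with a difference to L-DKO of 0.25 ± 0.15 (SE, limma, adjusted p = 0.582). Rpl22l1 was lower, at 6.50 in WT and 6.27 in pTαKO, at 6.26 and 6.32 in the L-DKO pair, and at 6.30 and 6.86 in the LP pair, and only LP replicate 2 stood apart. The LP minus L-DKO difference of Rpl22l1 was 0.29 ± 0.22 (SE, limma, adjusted p = 0.656), and its copy Gm15421 (99.5% identical) stood between 3.67 and 4.43.

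Among the proteins that bind Mdm2 when unassembled, Rpl5 stood at 7.20 in WT and 7.47 in pTαKO, at 7.22 and 7.21 in the L-DKO pair, and at 7.37 and 7.53 in the LP pair. Rpl11 stood at 9.77 in WT and 10.003 in pTαKO, at 9.91 and 9.97 in the L-DKO pair, and at 10.21 and 10.09 in the LP pair. In both genes the pTα-deficient libraries were above the pTα-sufficient ones without overlap, by 0.26 for Rpl5 and 0.22 for Rpl11. Of 10 genes on a list of p53 and nucleolar stress, 5 were above 0 and 5 below in LP minus L-DKO, and none was called. Trp53 itself, which encodes p53, differed by -0.49 and its target Cdkn1a by 1.62 (limma, Benjamini-Hochberg adjusted p = 0.358 and 0.382).

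The remaining paralogs were low or uneven. Rpl3l, a paralog of Rpl3 known from striated muscle, stood at 0.89 in WT and 0.13 in pTαKO, at 1.90 and 2.14 in the L-DKO pair, and was listed at 0 in both LP libraries. Its L-DKO libraries were the highest of the 6, and the fitted difference of -2.02 ± 0.43 (SE, limma, adjusted p = 0.319) is not a fold change because LP is listed at 0. Rpl39l, a paralog of Rpl39 best known from testis, stood at 2.02 in WT and 2.70 in pTαKO, at 0.64 and 1.52 in the L-DKO pair, and at 0.44 and 1.61 in the LP pair. It was higher in both Id-intact libraries than in all 4 Id-deficient ones, while Rpl39 stood between 8.50 and 8.96 and its groups overlapped. Rps27l, a paralog of Rps27 that is a p53 target, stood at 7.09 in WT and 7.59 in pTαKO, at 6.85 and 7.55 in the L-DKO pair, and at 7.24 and 6.74 in the LP pair. Its L-DKO replicates and its LP replicates each differed by more than the L-DKO and LP means did, and it was 1 of 7 members below 0 in LP minus L-DKO. Rps4l lay between 1.57 and 2.67, Rpl7l1 between 5.06 and 5.39, Rpl36al between 8.75 and 8.93, Rps27rt between 7.41 and 7.74, and Rps19bp1, whose product binds Rps19, between 4.49 and 5.01.

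**Figure D4:**
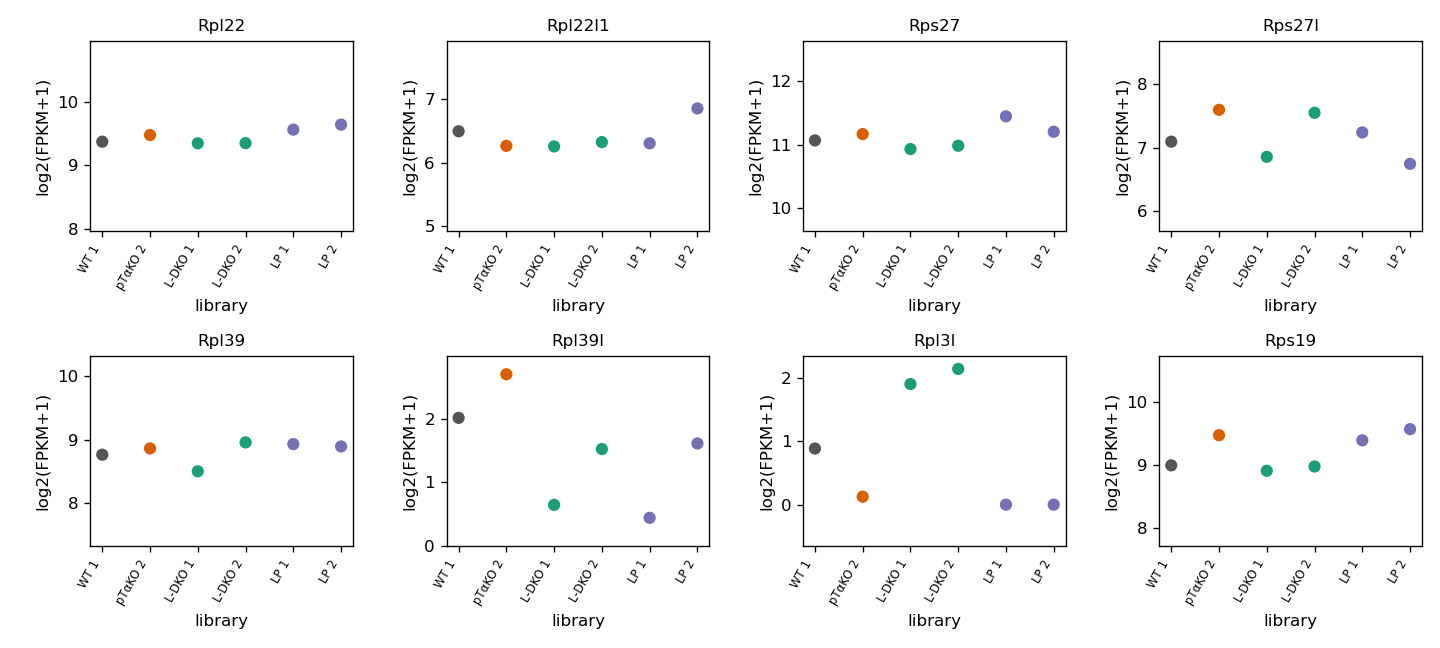
Level in log2(FPKM + 1) in each of the 6 libraries (x axis) of 4 core genes, Rpl22, Rps27, Rpl39 and Rps19, and 4 paralogs, Rpl22l1, Rps27l, Rpl39l and Rpl3l. Panels have their own y axes, and Rps19 is higher in the 3 pTα-deficient libraries, and Rpl3l is listed at 0 in both LP libraries.

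The X-linked members Rpl10, Rpl36a, Rpl39 and Rps4x had ranges over the 6 libraries of 0.37, 0.48, 0.46 and 0.34, respectively. Rps4x lay between 9.70 and 10.04, with its LP libraries the highest of the 6. Rpl10 lay between 8.24 and 8.60 and Rpl36a between 7.96 and 8.44. Rpsa, the small subunit protein also called the laminin receptor, lay between 8.59 and 8.89. Rps27a, made as a fusion with ubiquitin, lay between 8.30 and 8.65, and its LP minus L-DKO difference was 0.21. Fau, which encodes a fusion that yields Rps30, stood at 9.76 in WT and 9.84 in pTαKO, at 9.56 and 9.88 in the L-DKO pair, and at 10.01 and 9.88 in the LP pair. Among core genes, Rpl29 of the large subunit (0.04) and Rps25 of the small subunit (0.06) showed the smallest differences between LP and L-DKO apart from Rplp0 and the copies, and both lay within the replicate spread, Rpl29 between 8.80 and 9.15 and Rps25 between 8.63 and 8.92.

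The balance of the subunits was compared within each library, as the median of the 37 core large subunit genes minus that of the 33 core small subunit genes. It was -0.64 in WT and -0.18 in pTαKO, with -0.12 and -0.25 for the L-DKO pair and -0.33 and -0.42 for the LP pair. Taken as a mean over members, the balance was 0.23 in WT and 0.26 in pTαKO, at 0.20 and 0.24 in the L-DKO pair, and at 0.15 and 0.15 in the LP pair. The sign depended on the summary. Division of reads among near-identical entries also enters these values, and the balance was not computed with copies summed. Without Rps3a2, Rps3a3, Rps12l1 and Rps12l2, a choice made after the data were seen, the difference of means was below 0 in all 6 libraries, between -0.39 and -0.23, and the difference of medians lay between -0.70 and -0.43.

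Genes that work with the ribosome were set beside the family, none of them called by limma between LP and L-DKO. Of 18 genes on a list of elongation factors and other TOP mRNAs, 13 were above 0, with a median of 0.17, and the extremes were Eef1b2, a nucleotide exchange factor for elongation factor 1 (0.53), and Vim, which encodes vimentin (-0.91). The 73 mitochondrial ribosomal proteins had a median of 0.12 and the 76 nuclear-encoded respiratory chain genes a median of 0.06. The 44 ribosome biogenesis genes measured had a median of 0.02, with 23 above 0 and 21 below, and included Pno1, a factor for small subunit assembly (1.16), and Gar1, of the pseudouridylation complex (-0.75). The 12 genes of RNA polymerase I had a median of 0.10. The 17 genes of mTOR and translation control had a median of -0.07, with Eif4ebp1, a repressor of cap-dependent initiation, at -0.92 and Rptor, of mTOR complex 1, at 0.61. Myc stood at 3.72 in WT and 4.61 in pTαKO, at 3.94 and 3.81 in the L-DKO pair, and at 4.44 and 4.71 in the LP pair, and its pTα-deficient libraries were above the pTα-sufficient ones without overlap (difference 0.80, limma adjusted p = 0.284). The snoRNA host genes measured were 5 in number, 4 of them above 0, among them the TOP gene Gas5 (0.29).

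Summed levels of markers of other cells were unequal between the same libraries, and none of these markers was called between LP and L-DKO or in the pTα comparison. The summed level of 12 myeloid markers was 32.2 FPKM in WT and 359 in pTαKO, at 41.1 and 37.8 in the L-DKO pair, and at 88.1 and 97.8 in the LP pair, and all 12 were above 0 in both the LP minus L-DKO and the pTα comparison. The summed level of 5 erythroid markers was 751 in WT and 2651 in pTαKO, at 719 and 3341 in the L-DKO pair, and at 3035 and 1740 in the LP pair. The 2 libraries with the lowest erythroid sums, WT and L-DKO replicate 1, were also the 2 with the lowest ribosomal protein sums. Among the other libraries the orders differed. L-DKO replicate 2 had the highest erythroid sum, 3341, and a ribosomal protein sum of 59035, while LP replicate 2 had 1740 and 64085. The 5 B cell markers measured summed to 20.2 in WT and 47.4 in pTαKO, at 29.6 and 39.3 in the L-DKO pair, and at 63.6 and 75.7 in the LP pair, and the 3 thymic epithelial markers measured to between 10.04 and 28.8. None of these markers was listed at 0 in any library, while Cd79a, Pax5 and Foxn1 were not analysed here. The 11 DP thymocyte markers, among them Cd4, Cd8a and Rag2, summed to between 4774 and 5323. The part of other cells in the ribosomal protein difference was not tested, and in such samples fewer cells of a type cannot be told apart from less RNA per cell. Without the pTαKO library, in which myeloid transcripts were highest, both LP libraries lay above all 3 pTα-sufficient libraries in 49 members (62%). The share of all genes with that library left out was 15.5%. The myeloid sums of the LP libraries, 88.1 and 97.8, were also above those of the 3 pTα-sufficient libraries, between 32.2 and 41.1. The part of myeloid cells in that count was not tested.

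**Figure D5:**
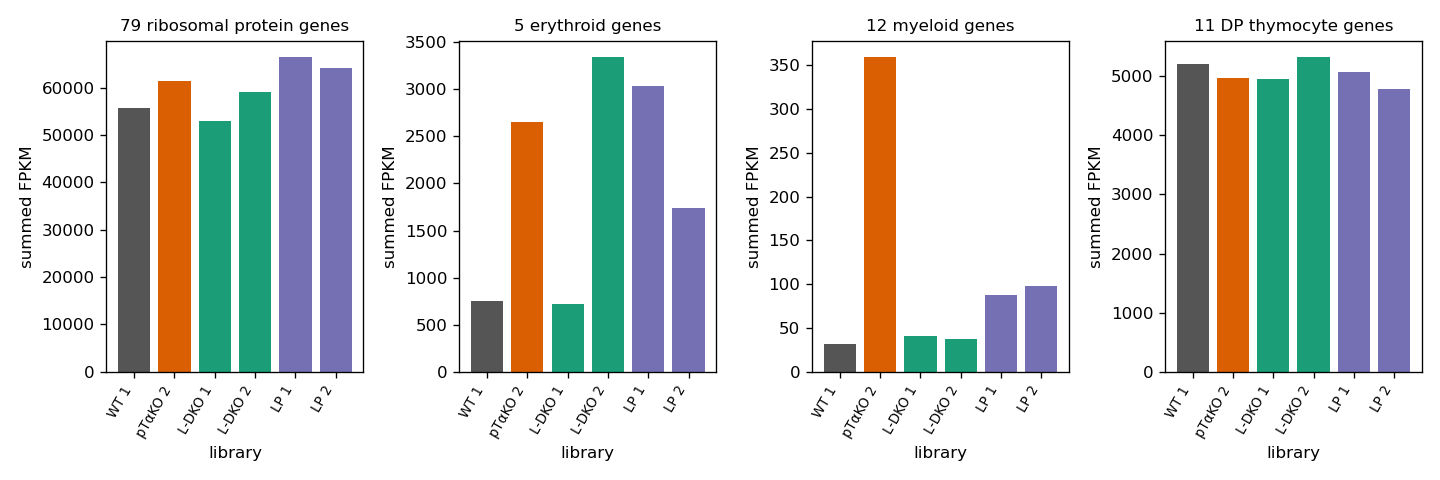
Summed FPKM (y axis, from 0) in each of the 6 libraries (x axis) for the 79 ribosomal protein genes, 5 erythroid, 12 myeloid and 11 DP thymocyte genes. Ribosomal protein sums run from 52868 FPKM in L-DKO replicate 1 to 66450 FPKM in LP replicate 1, erythroid sums are lowest in WT and L-DKO replicate 1, and the myeloid sum is highest in pTαKO at 359 FPKM.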

How the data were processed

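Thymocytes were sorted and mRNA was enriched with oligo(dT) beads, and libraries were sequenced paired-end. The submitters' processing notes name Trimmomatic 0.32, TopHat2 2.0.9 and Cufflinks 2.2.0, with the mm10 build. The authors deposited 1 table of log2(FPKM + 1) values, with 6 library columns that could be matched to labels. The other pTαKO library (replicate 1) was not used. The 2 columns of group means and 3 columns of the authors' own differences were not used.

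Where a symbol was repeated, only its most abundant entry was used. All 12063 of 12092 genes that reached 0.5 FPKM on average were fitted in limma 3.58.1 (R 4.3.3) with 1 mean per genotype and a trended prior, leaving 2 residual degrees of freedom. For the genotypes with a lone library, WT and pTαKO, the spread came from L-DKO and LP. P-values were adjusted over all 12063 genes by Benjamini and Hochberg, with a threshold of 0.05. Depth was not stated, so no counting interval was given. Same-numbered L-DKO and LP libraries did not deviate together (correlation 0.04 over all genes), so the numbers were not used as pairs.

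The members and lists were chosen with earlier results of these data known. Named members were the largest differences in each direction (8 for LP minus L-DKO, 3 for each other comparison), the 5 extremes of level and of SD, all 9 genes not counted as core, and a fixed set of genes of known role. Some genes that the rule names are not reported here. Copies were sought with blastn 2.17.0 on NCBIM37 coding sequences, and their levels, like the start windows from RefSeq (GRCm38.p6), were examined after the values had been seen. Alternatives changed the pseudocount, filter, prior, scaling, treatment of repeated symbols and copies, and left out each library.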

Additional observations from a re-analysis of the deposited data

Results flagged for a closer look

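In 4 of the members reported here the pTαKO minus WT difference ran opposite to the LP minus L-DKO difference, in every library compared. Other members also met this rule, among them Rpl23, Rpl27 and Rps3, and its share over all genes was not computed. For Rpl7l1, Rps27rt and Rps12l1 the pTαKO minus WT difference was small, at -0.017, -0.049 and -0.060. None passed limma's interaction test (Benjamini-Hochberg adjusted p between 0.974 and 0.996), and the pTαKO and WT side rests on 1 library each. LP minus L-DKO was 0.13 for Rpl7l1, a paralog of Rpl7, which stood at 5.07 in WT and 5.06 in pTαKO. It was 0.25 for Rps27rt, a relative of Rps27, at 7.46 in WT and 7.41 in pTαKO. It was 0.41 for Rps12l1, at 6.52 in WT and 6.46 in pTαKO. For Rplp0 it was -0.24, while pTαKO exceeded WT by 1.07. Over the coding sequence Rps12l1 is 100% identical to Rps12, and Rps27rt to Rps27. Their levels are therefore uncertain, as is that of Rplp0. With copies summed, WT and pTαKO stood at 9.59 and 9.66 for Rps12l1, 11.18 and 11.27 for Rps27rt, and 9.83 and 10.29 for Rplp0. On these sums LP was also above L-DKO on average, so the differences did not run opposite.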

How the results depend on the processing

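limma called no member in any comparison under any alternative run, and the lowest adjusted p of a named member was 0.144. The medians over members kept their direction for LP minus L-DKO and for pTα-deficient minus pTα-sufficient. When each L-DKO or LP library was left out, they ran from 0.15 to 0.30 and from 0.12 to 0.24, respectively. WT and pTαKO have 1 library each, so the pTα comparison could not be fitted without either of them. L-DKO minus WT moved to -0.10 under quantile normalization and ran from -0.09 to 0.08 without each L-DKO or LP library. The interaction ran from -0.022 to 0.17, the lowest without L-DKO replicate 1. In the fit of L-DKO and LP alone with the replicate number as a block, 2 genes were called. That fit holds only the LP minus L-DKO comparison. Its median, 0.21, is left unchanged by a balanced block by construction.

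The count of all genes called was less steady. Ranges without each library below cover the L-DKO and LP libraries only. For LP minus L-DKO it was 4 with a filter at a mean FPKM of 5, 1 with no trend, 4 after quantile normalization and 2 to 12 without each library. For LP minus WT it was 1 with no trend and 3 to 13 without each library, and for L-DKO minus WT 0 with no trend, 3 with repeated symbols summed and 0 to 13. It was 7 for LP minus pTαKO with repeated symbols summed, and for the pTα comparison 3 with no trend and 4 to 21. For the Id comparison it was 17 with a pseudocount of 5, 5 with no trend and 8 to 20, and for the interaction 10 with a pseudocount of 5 and 4 to 15. The cause was not tested.

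Members with both LP libraries below both L-DKO libraries came to 1 with copies summed, 1 among core genes and 3 to 10 when an L-DKO or LP library was left out, the highest without L-DKO replicate 1. Members above in the pTα comparison ran from 35 to 55 and those below from 1 to 2, with 2 without WT and 0 among core genes. The 55, without L-DKO replicate 2, were 69.6% of members, against 14.9% of all genes with that library left out. Leaving out a library makes separation easier by construction, over all genes as well. Shares over all genes were computed only for members above in the pTα comparison, without L-DKO replicate 2 or without pTαKO. The other counts with a library left out cannot be set beside such a share.

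The large minus small subunit difference as a mean was 0.23 in WT, 0.26 in pTαKO, 0.20 and 0.24 for the L-DKO libraries, and 0.15 and 0.15 for the LP libraries. As a median over all members it was -0.46 in WT and -0.50 in pTαKO. It was -0.44 and -0.23 for the L-DKO libraries, and -0.43 and -0.52 for the LP libraries. Without the 4 copies it was -0.70 in WT, -0.45 in pTαKO, -0.43 and -0.58 for the L-DKO libraries, and -0.51 and -0.62 for the LP libraries.

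Of 787 alternative values for named members, 26 turned direction. With copies summed, LP minus L-DKO became 0.11 for Rplp0 and 0.27 for Rps3a2 and Rps3a3, and the pTα difference of Rps3a3 became 0.21. Quantile normalization gave 0.062 for LP minus L-DKO and 0.00092 for the pTα difference of Rps3a3, and centring gave -0.038 for the pTα difference of Rps25. When each L-DKO or LP library was left out, LP minus L-DKO ran from -0.12 to 0.19 for Rpl29, from -0.046 to 0.41 for Rpl39, from -0.64 to 0.53 for Rpl39l, from -0.015 to 0.20 for Rpl8, from -0.041 to 0.80 for Rps15a, from -0.080 to 0.21 for Rps25, from -0.56 to 0.14 for Rps27l, from -0.51 to 0.36 for Rps3a2, from -0.59 to 0.57 for Rps3a3 and from -0.56 to 0.54 for Rps4l. The pTα difference ran from -0.064 to 0.080 for Rps25 and from -0.31 to 0.27 for Rps3a3.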
